A study of Mus musculus with 36 samples.

Results

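The Hedgehog ligands and targets described here are 8 mouse genes. They are the ligand genes Dhh and Ihh, the receptor gene Ptch1, the ligand-binding inhibitor gene Hhip, the transducer gene Smo and the transcription factor genes Gli1, Gli2 and Gli3. Each was taken from the one probe set annotated to that gene symbol alone, and they are 8 of 19938 genes measured. The assay was the Affymetrix Mouse Gene 1.0 ST array, with probes along the whole transcript, and the RNA came from cells sorted by fluorescence from fetal gonads. Supporting cells are the somatic lineage that surrounds the germ cells, and they become Sertoli cells in XY and pregranulosa cells in XX gonads. They and the germ cells were taken from XY and XX fetuses at stages labelled TS13, TS24 and TS34, before, during and after sexual differentiation by the labels, with 3 arrays in each of 12 groups. The question for these genes is when and in which of the 2 cell types the sexes come to differ in them.

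The supporting groups came from different mouse lines. XY supporting cells at TS24 and TS34 came from Tg(Sox9-cre/ERT2)1Msan/J mice on C57BL/6, with Sox9 given as the gene reported. The label of that line names no reporter allele, so the line is given here only as labelled. XY supporting cells at TS13 and XX supporting cells at every stage came from Tg(Sry-EGFP)92Ei mice on CD-1, in which Sry regulatory sequence drives the green fluorescent protein. All germ cells, XY and XX, carried an Oct4 (Pou5f1) reporter on a mixed background derived from C57BL/6NJ. Sex and mouse line therefore cannot be told apart in supporting cells at TS24 and TS34, and cell type and line cannot be told apart anywhere. Nor can stage and line between TS13 and TS24 in XY supporting cells. The sexes share a line in supporting cells at TS13 and in germ cells at every stage. Gonads were pooled by sex before dissociation, and the labels do not say that replicates were separate pools, so p-values measure only how far these samples differ from each other, and that spread may be technical.

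Hedgehog proteins are secreted ligands. On a receiving cell they bind Patched 1, the protein of Ptch1, which otherwise holds Smoothened (Smo) inactive, and active Smoothened acts through the GLI transcription factors, largely at the primary cilium. Ptch1, Gli1 and Hhip are themselves induced by the pathway in many tissues and are used as readouts of it. In the fetal mouse testis Desert hedgehog (Dhh) is made by Sertoli cells, and it is needed for fetal Leydig cells to differentiate in the interstitium.

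One array was left out. The library labelled germ XX TS24 replicate 3 had Pou5f1 at 5.07, against a mean of 10.70 in the other 2 arrays of its group, and Wt1, a supporting cell gene, at 11.19, against 7.69. Its Pdgfra, an interstitial cell gene, was at 10.6, against 6.86 in those 2 arrays and 6.82 in XX supporting cells at TS24. Its Dhh was 6.51, Ihh 7.18, Ptch1 8.55, Hhip 6.25, Smo 9.37, Gli1 7.86, Gli2 7.67 and Gli3 9.03. The germ XX TS24 group therefore has 2 arrays and the fit 35. On the remaining arrays the 6 germ cell markers had a summed level of 300 to 683 in supporting cells and of 8287 to 13267 in germ cells. The 4 supporting cell markers had 4170 to 7682 in supporting cells and 415 to 670 in germ cells. A summed level is the sum over a list of each gene's level off the log scale, in arbitrary units. Values below are log2 expression, on which a difference of 1 is a factor of 2, and differences are given ± their standard error with n = 3 arrays per group (2 for XX germ cells at TS24). A difference is called at an adjusted p under 0.05 by limma, with Benjamini-Hochberg adjustment over 17571 genes. In bulk samples fewer cells of a type and less RNA per cell cannot be told apart.

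**Figure D1:**
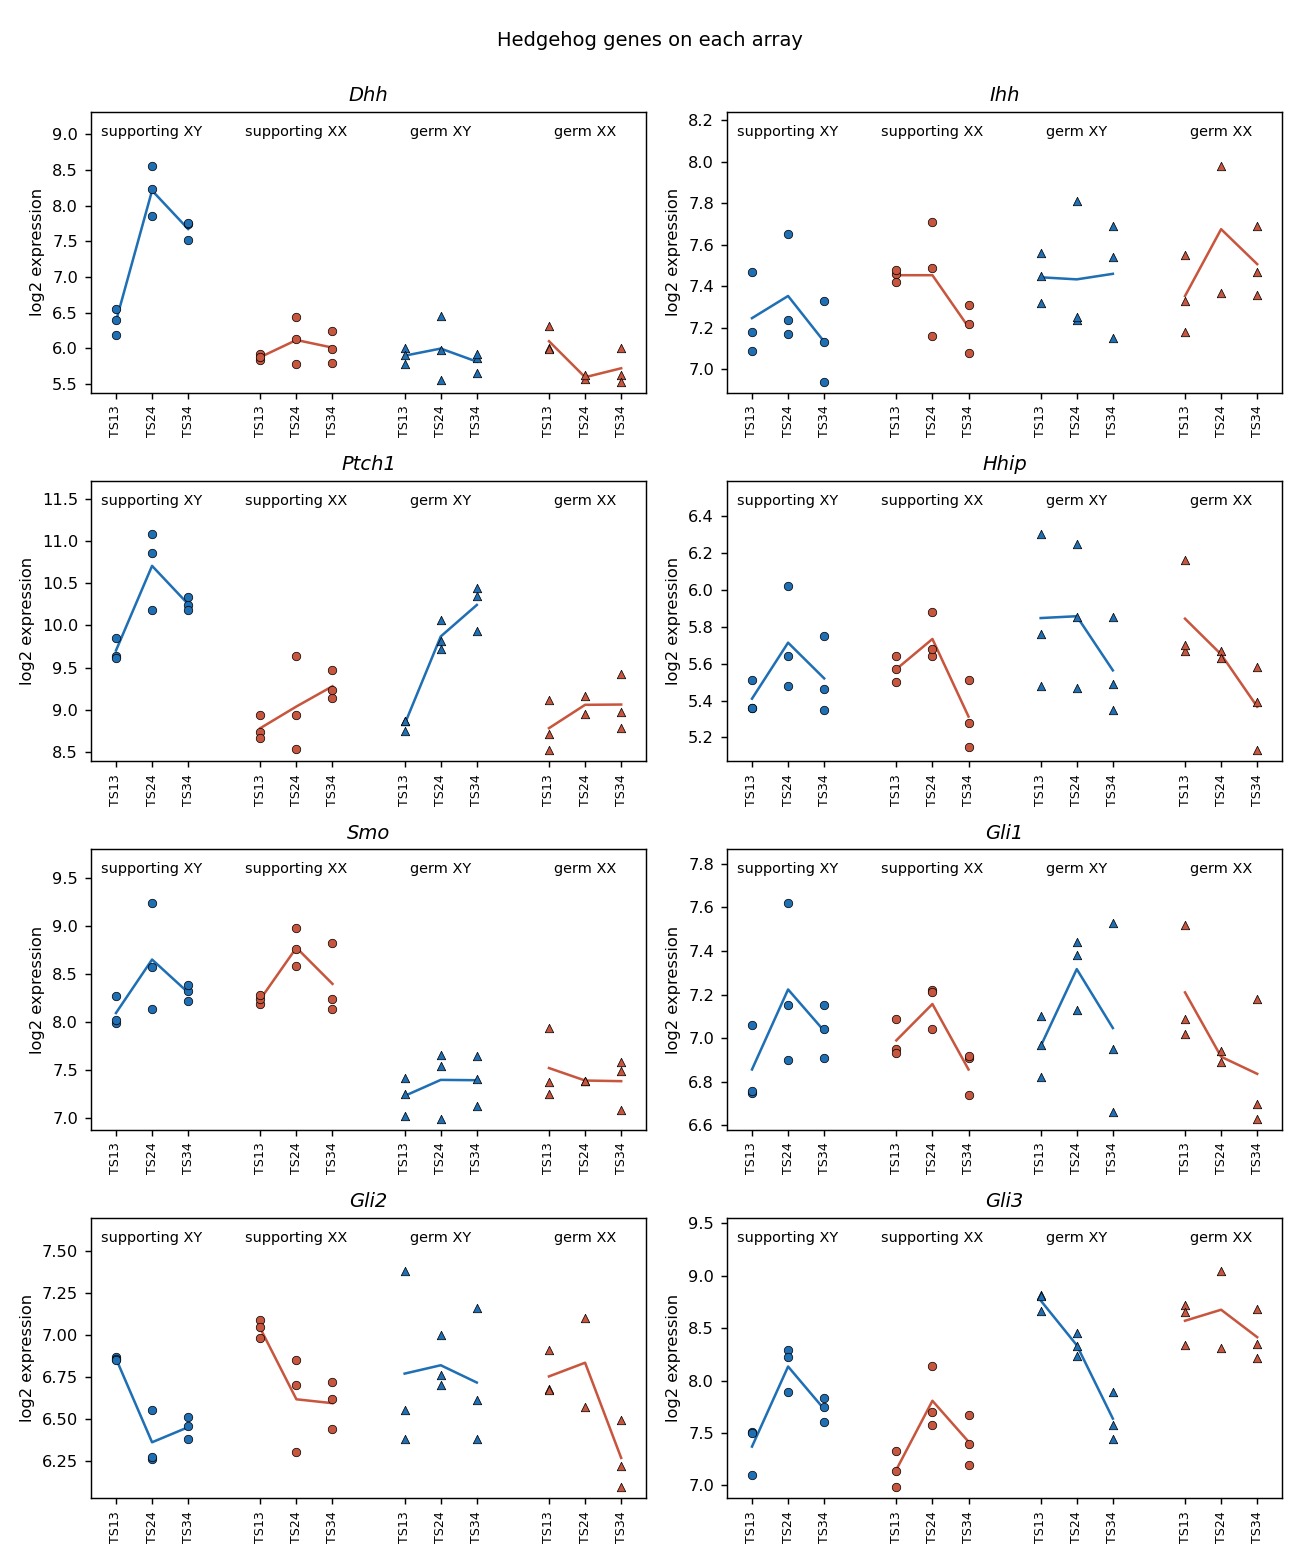
Log2 expression (vertical axis) of the 8 genes on each of 35 arrays, by cell type, sex and stage (horizontal axis), with XY in blue, XX in red, circles for supporting cells and triangles for germ cells. Lines join group means. Dhh stands highest in XY supporting cells at TS24 and TS34, Ptch1 is high in XY cells of both types from TS24, and Smo separates the cell types.

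Dhh was high in one place alone among the 12 groups, the XY supporting cells from TS24 on. In XY supporting cells it read 6.19, 6.40 and 6.55 at TS13, 8.56, 8.23 and 7.85 at TS24, and 7.52, 7.74 and 7.76 at TS34. In XX supporting cells it read 5.83, 5.92 and 5.88 at TS13, 5.78, 6.44 and 6.13 at TS24, and 6.25, 5.79 and 5.99 at TS34. The sexes did not overlap in supporting cells at any stage, although the gap at TS13 was small. All 17 germ cell arrays lay between 5.53 and 6.45, within or close to the range of XX supporting cells.

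The XY minus XX difference of Dhh in supporting cells was 0.51 ± 0.21 at TS13, which was not called (adjusted p = 0.247, or 0.0125 with array weights, at 0.45). It was 2.09 ± 0.21 at TS24 (adjusted p = 1.02e-11) and 1.66 ± 0.21 at TS34 (adjusted p = 8.17e-09). Dhh rose to a mean of 8.21 in XY supporting cells at TS24, against 6.38 at TS13, a step of 1.83 ± 0.21 (adjusted p = 1.71e-09). The following step to TS34, with a difference of -0.54 ± 0.21, was not called (adjusted p = 0.252). The sex difference itself was larger at TS34 than at TS13, by 1.15 ± 0.29 (adjusted p = 0.00848), and larger at TS24 than at TS13, by 1.59 ± 0.29 (adjusted p = 1.52e-04). The second of these comparisons was added after the values were seen.

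Dhh had an XY minus XX difference in germ cells of -0.20 ± 0.21 at TS13. At TS24 this was 0.40 ± 0.23 and at TS34 0.10 ± 0.21, none of them called. The sex difference in supporting cells exceeded that in germ cells by 1.70 ± 0.31 at TS24 (adjusted p = 5.90e-05) and by 1.56 ± 0.29 at TS34 (adjusted p = 6.39e-05), both comparisons added after the values were seen. Ordered by mean, XY supporting cells at TS24 came first and those at TS34 next, with no overlap between them or with any other group. The other 10 groups formed a run in which each neighbour overlapped the next, with means between 5.60 and 6.38.

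Ptch1 was also higher in XY than in XX supporting cells, already at TS13. In XY supporting cells it read 9.64, 9.85 and 9.62 at TS13, 10.86, 10.18 and 11.08 at TS24, and 10.24, 10.18 and 10.34 at TS34. In XX supporting cells it read 8.74, 8.67 and 8.94 at TS13, 8.94, 9.64 and 8.54 at TS24, and 9.47, 9.14 and 9.23 at TS34. The sexes did not overlap at any of the 3 stages. The difference was 0.92 ± 0.22 at TS13 (adjusted p = 0.00660), where both sexes came from one mouse line. It was 1.67 ± 0.22 at TS24 (adjusted p = 4.80e-08) and 0.97 ± 0.22 at TS34 (adjusted p = 9.52e-04). Within XY supporting cells Ptch1 rose by 1.00 ± 0.22 at TS24 relative to TS13 (adjusted p = 8.28e-04). The change of the sex difference between TS13 and TS24, 0.75 ± 0.31, was not called (adjusted p = 0.228).

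XY and XX germ cells also differed in Ptch1 at TS34, and no difference was called at TS13. In XY germ cells it read 8.87, 8.75 and 8.87 at TS13, 9.82, 10.07 and 9.72 at TS24, and 9.94, 10.35 and 10.44 at TS34. In XX germ cells it read 8.71, 8.52 and 9.12 at TS13, 8.95 and 9.17 at TS24, and 9.43, 8.98 and 8.78 at TS34. The sexes overlapped at TS13 and were apart at the later stages. The difference was 0.05 ± 0.22 at TS13 (95% interval -0.40 to 0.49), 0.81 ± 0.25 at TS24, which was not called (adjusted p = 0.0766), and 1.18 ± 0.22 at TS34 (adjusted p = 1.27e-04). At TS24 it was called with quantile-normalized values (adjusted p = 0.0334) and with median-centred arrays (adjusted p = 0.0275). It was also called with the left-out array included (adjusted p = 0.0126), but that array lacked a germ cell profile.

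Ptch1 rose by 1.04 ± 0.22 in XY germ cells at TS24 relative to TS13 (adjusted p = 0.00359), a call lost without germ XY TS24 replicate 2 (0.94, adjusted p = 0.0515). The germ cell sex difference at TS34 exceeded that at TS13 by 1.13 ± 0.31 (adjusted p = 0.0265). That call was lost on leaving out any one of 5 germ cell arrays, with adjusted p of 0.0627 to 0.114 and differences of 0.97 to 1.09. Those were XX TS13 replicate 3, XX TS34 replicates 2 and 3, and XY TS34 replicates 2 and 3. It was also lost with the left-out array included (adjusted p = 0.0709). The sex difference of Ptch1 in supporting cells exceeded that in germ cells by 0.87 ± 0.31 at TS13 (adjusted p = 0.221) and by 0.86 ± 0.33 at TS24 (adjusted p = 0.0983). Neither was called, although quantile-normalized values gave calls at both stages (adjusted p = 0.0318 at TS13 and 0.0432 at TS24). At TS34 the same difference was -0.21 ± 0.31, with a 95% interval of -0.84 to 0.43. Between the cell types in XY, Ptch1 was higher in supporting than in germ cells at TS13, with means of 9.70 and 8.83 (0.87 ± 0.22, adjusted p = 0.00136). It was higher at TS24 as well, at 10.70 in supporting and 9.87 in germ cells (0.84 ± 0.22, adjusted p = 0.00235). At TS34 the means were 10.25 in supporting and 10.24 in germ cells, not called.

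Markers of other cell types moved with some of these differences. Of the 5 Sertoli markers, 4, 5 and 5 were higher in XY than in XX supporting cells at TS13, TS24 and TS34, with summed levels at TS34 of 13482 to 15878 in XY and 1485 to 1792 in XX. In germ cells the Sertoli marker Cst9 was higher in XY at TS24, and Cst9 and Hsd17b3 at TS34, 2 of 5. Cst9 had means of 7.55 in XY and 4.66 in XX germ cells at TS24, and of 7.69 and 4.49 at TS34. Hsd17b3 had 6.41 in XY and 5.13 in XX germ cells at TS34. The brightest of the list in germ cells at TS34 was Aard, at 9.17 in XY and 9.19 in XX. The summed level of the list at TS34 was 950 to 1442 in XY germ cells and 749 to 1090 in XX germ cells, and in XX germ cells Cst9 and Hsd17b3 were not above the 25th percentile of their arrays. The other 3, Sox9, Amh and Aard, were not called between the sexes in germ cells. The part of this in the Ptch1 difference of germ cells was not tested. Dhh was at 5.82 in XY and 5.72 in XX germ cells at that stage. In XY supporting cells it was at 7.67 there, far below Cst9 at 12.55 and Hsd17b3 at 11.64. Dhh is thus too dim to decide whether a small share of such cells was present. Lhx1, 1 of 4 mesonephric markers, was higher in XY germ cells by 1.64 ± 0.25 at TS24 and 1.76 ± 0.23 at TS34. It was also higher in germ than in supporting cells, with an average supporting minus germ difference of -1.44 ± 0.09 (adjusted p = 4.88e-19). The others on the mesonephric list, Pax2, Pax8 and Cdh16, were not called between the sexes in germ cells. The summed level of that list was 428 to 703 in XY and 332 to 436 in XX germ cells at TS34, and its part in the result was not tested either.

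All 4 fetal Leydig cell markers measured were higher in XY than in XX supporting cells at TS34, namely Cyp11a1, Cyp17a1, Star and Hsd3b1, which serve steroid synthesis. Their summed level was 528 to 664 in XY and 214 to 222 in XX. At TS24 Star alone was higher in XY supporting cells, with summed levels of 287 to 388 in XY and 200 to 297 in XX, and at TS13 none was higher and Cyp11a1 was lower. The part of Leydig cells in the Ptch1 differences of supporting cells, 0.92 at TS13, 1.67 at TS24 and 0.97 at TS34, was not tested. In XY germ cells Cyp11a1 and Hsd3b1 were not above the 25th percentile of their arrays at any stage. Of 4 interstitial markers, Pdgfra was higher and Nr2f2 lower in XY supporting cells at TS13 and TS24 and none was called at TS34. In germ cells at TS24 the interstitial marker Dcn was lower in XY, at 6.35 in XY and 7.59 in the 2 XX arrays (adjusted p = 0.0193), and at 6.28 in XX supporting cells it was also lower than in those XX germ cells (adjusted p = 7.67e-04). The summed interstitial levels there were 367 to 373 in XY and 408 to 728 in XX germ cells. Of 3 erythroid markers, Hba-x and Alas2 were higher in XY supporting cells at TS24, with overlapping summed levels of 976 to 3865 in XY and 313 to 2147 in XX. Alas2 was higher at TS34 too, at 7.51 in XY and 6.76 in XX (adjusted p = 0.00569), with overlapping summed levels of 796 to 931 in XY and 310 to 1515 in XX. Of 5 dissociation stress genes, Fos and Atf3 were lower in XY supporting cells at TS34, with summed levels of 2058 to 2618 in XY and 3528 to 4846 in XX. No endothelial or macrophage marker was called between the sexes in either cell type, of 5 and 4 tested. Of the 5 pregranulosa markers, Fst, Wnt4, Irx3 and Bmp2 were lower in XY than in XX supporting cells at every stage. In germ cells at TS34, Pou5f1 and Dnd1 were higher and Kit lower in XY, of 6 germ cell markers. The part of these lists in the results was not tested.

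Markers also moved with the TS24 minus TS13 steps. In XY supporting cells, where Dhh, Ptch1 and Gli3 rose, 3 of 5 Sertoli markers rose (Amh, Cst9 and Hsd17b3), with summed levels of 13919 to 16183 at TS24 and 6987 to 7602 at TS13. Of 4 interstitial markers 2 fell, Pdgfra (-2.04 ± 0.25) and Nr2f2 (-1.24 ± 0.27), with summed levels of 423 to 612 at TS24 and 1214 to 1445 at TS13. Of 4 Leydig markers Hsd3b1 rose by 0.68 and Cyp11a1 fell by 0.98, and the summed levels overlapped, at 287 to 388 at TS24 and 286 to 390 at TS13. Single markers rose of 3 erythroid (Alas2, 0.92), 5 endothelial (Cdh5, 0.70), 5 stress (Egr1, 1.39) and 6 germ cell markers (Dppa3, 0.79), and 2 of 5 pregranulosa markers fell (Fst and Bmp2). The summed levels were 976 to 3865 at TS24 and 457 to 2871 at TS13 for the erythroid list and 391 to 457 at TS24 and 310 to 387 at TS13 for the endothelial list. They were 2312 to 3503 at TS24 and 2644 to 3176 at TS13 for the stress genes, and 383 to 459 at TS24 and 300 to 341 at TS13 for the germ cell list. In XY germ cells, where Ptch1 rose, the mesonephric marker Lhx1 rose by 1.41 ± 0.23 (adjusted p = 4.77e-05), 1 of 4, with summed levels of 783 to 799 at TS24 and 433 to 658 at TS13. Of the 5 Sertoli markers Cst9 rose by 2.01 ± 0.30 and Hsd17b3 by 0.96 ± 0.21 there, with overlapping summed levels of 903 to 1370 at TS24 and 815 to 1392 at TS13. Lhx1 fell by 0.79 ± 0.23 in XY germ cells at TS34 relative to TS24, the step in which Gli3 fell. So did Pecam1, 1 of 5 on the endothelial list, and Kit, 1 of 6 germ cell markers. Pecam1 was higher in germ than in supporting cells, with averages of 10.13 and 6.82 (adjusted p = 1.26e-33), so it does not mark endothelial cells alone here. The part of these markers in the steps was not tested.

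**Figure D2:**
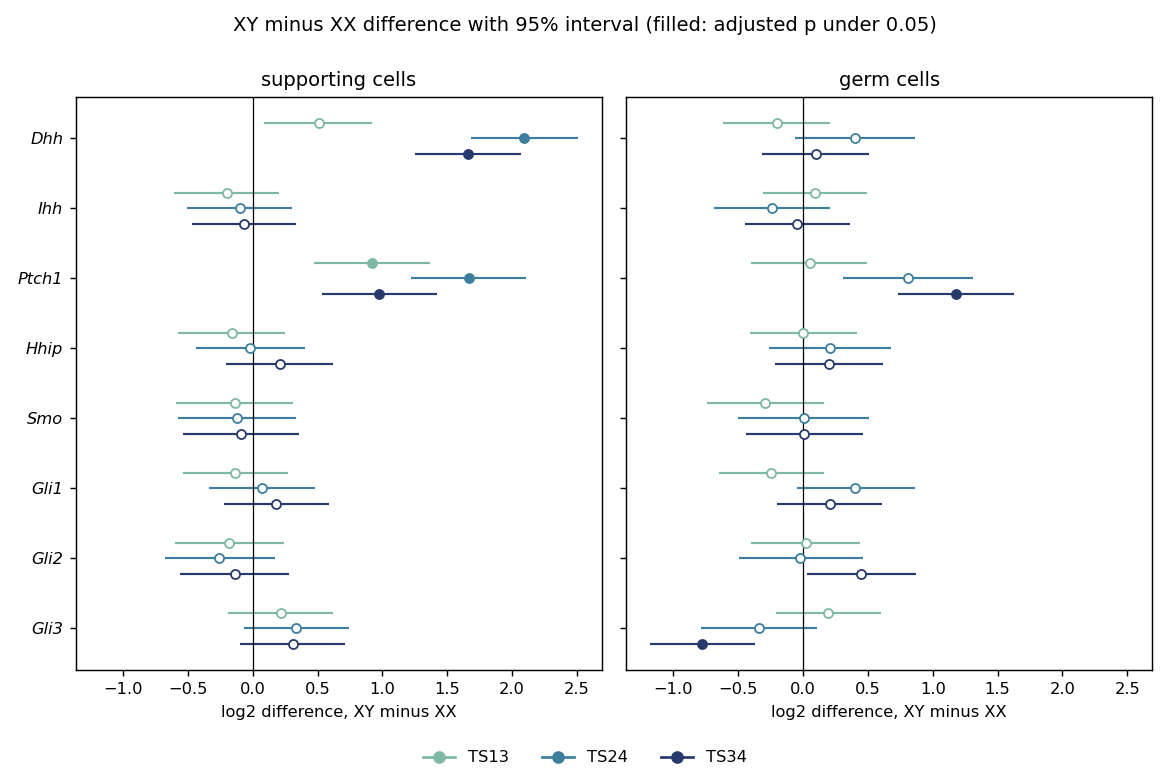
XY minus XX log2 difference (horizontal axis) with its 95% interval for each of the 8 genes (vertical axis) at TS13, TS24 and TS34, in supporting cells (left) and germ cells (right). Filled points have an adjusted p under 0.05. In supporting cells Ptch1 is filled at every stage and Dhh at TS24 and TS34, and in germ cells Ptch1 and Gli3 are filled at TS34, on opposite sides of 0.

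The stretch before 1 annotated transcription start is shown for each of Dhh and Ptch1, the pair of genes that were both higher in XY supporting cells. The sequences are the 250 bases upstream of that RefSeq start in GRCm38.p6, 5′ to 3′ on the gene's strand (minus for both). They lie at chr15:98898541-98898790 for Dhh and chr13:63565736-63565985 for Ptch1. The annotated Ptch1 gene runs from 63508328 to 63573460, so its window lies inside the gene, before an internal start. The stretch before its outermost start is not shown. The annotated Dhh gene runs from 98881615 to 98898562, so the last bases of the Dhh window also lie inside the gene. Capitals mark the GC box GGGCGG on either strand (CCGCCC on the other), the core bound by SP family factors, and it was chosen after the windows had been looked at.
Dhh: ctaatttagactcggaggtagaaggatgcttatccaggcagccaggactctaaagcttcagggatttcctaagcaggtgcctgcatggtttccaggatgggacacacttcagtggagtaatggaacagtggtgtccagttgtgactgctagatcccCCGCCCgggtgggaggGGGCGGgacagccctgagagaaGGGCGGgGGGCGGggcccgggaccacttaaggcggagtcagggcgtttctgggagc
Ptch1: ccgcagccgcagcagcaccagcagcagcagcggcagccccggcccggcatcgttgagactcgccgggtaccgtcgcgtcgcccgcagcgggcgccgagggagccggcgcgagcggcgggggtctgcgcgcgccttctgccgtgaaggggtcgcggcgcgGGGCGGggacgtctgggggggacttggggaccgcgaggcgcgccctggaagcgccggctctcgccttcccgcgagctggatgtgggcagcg
The Dhh window holds 4 GC boxes and the Ptch1 window 1, and 32.7% of 32851 windows of this length over all annotated starts hold at least 1. The Dhh window is 59.6% G and C with 9 CpG dinucleotides, and that of Ptch1 78.4% with 41, where the medians of all windows are 52.4% and 6. Windows were in the table for 7 of the 8 genes, and 6 of these 7 held a GC box, the exception being Smo. The GLI recognition sequence GACCACCCA was in 0 of the 7 on either strand, and in 0.225% of all windows. A match describes the letters alone, and no match says only that these letters are not in this window.

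Ihh, the other ligand gene among the 8, showed no such pattern. Its values ran from 6.94 to 7.98 over all 35 arrays, its group means spanned 0.54, and every group overlapped its neighbour in the order of means. It was called in none of the 28 comparisons, and with array weights in 2 between supporting and germ cells. Between XY and XX supporting cells it differed by -0.20 ± 0.20 at TS13, by -0.10 ± 0.20 at TS24 and by -0.07 ± 0.20 at TS34. The 95% intervals of the sex differences in both cell types lay between -0.69 and 0.49, so a change of 1 log2 unit in either direction was outside them. That holds for the scale of the array only, and how far this probe set follows Ihh RNA was not tested.

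Hhip, which encodes a membrane protein that binds Hedgehog ligands and limits their action, was dim. It exceeded the 25th percentile of its array (5.17 to 5.60) on 29 of 35 arrays and ran from 5.13 to 6.30. It was called in none of the 28 comparisons, and its sex differences had 95% intervals within -0.58 to 0.68. These bounds hold for the scale of the array only. With array weights Hhip was lower in supporting than in germ cells on average (-0.17, adjusted p = 0.0488) and in XY at TS13 (-0.42, adjusted p = 0.0406).

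Smo, the transducer, differed between the cell types, and no sex difference was called. In supporting cells it ran from 7.99 to 9.24 and in germ cells from 6.99 to 7.94, so that all 18 supporting arrays lay above all 17 germ arrays. In XY cells it read 9.24, 8.14 and 8.57 in supporting cells and 7.54, 6.99 and 7.66 in germ cells at TS24. The supporting minus germ difference averaged 1.02 ± 0.09 over sexes and stages (adjusted p = 7.58e-14). It was called in each of the 6 combinations of sex and stage, between 0.71 ± 0.22 in XX at TS13 and 1.39 ± 0.25 in XX at TS24. The XX TS13 call was lost without germ XX TS13 replicate 2 (0.58, adjusted p = 0.0824). No stage step of Smo was called either, except that of XX supporting cells at TS24 with array weights (0.57, adjusted p = 0.0464). With the left-out array included, the cell type calls in XX were lost at TS13 (0.71, adjusted p = 0.0982) and TS24 (0.72, adjusted p = 0.113). Between XY and XX supporting cells it differed by -0.14 ± 0.22 at TS13, by -0.12 ± 0.22 at TS24 and by -0.09 ± 0.22 at TS34, with 95% intervals between -0.59 and 0.36.

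Gli3, whose protein acts largely as a repressor when the pathway is silent, ran the other way between the cell types. Its supporting minus germ difference averaged -0.80 ± 0.08 (adjusted p = 6.23e-12). At TS13 it read 7.10, 7.51 and 7.50 in XY supporting cells, against 8.82, 8.81 and 8.66 in XY germ cells. In XX cells at that stage it read 6.98, 7.33 and 7.14 in supporting cells, against 8.72, 8.65 and 8.34 in germ cells. The cell types were thus apart by more than 1 log2 unit in both sexes at TS13.

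In XX cells Gli3 stayed lower in supporting cells, with differences of -0.87 ± 0.22 at TS24 and -1.0 ± 0.20 at TS34, both called. Without germ XX TS24 replicate 2 the TS24 value was -0.51 and was not called (adjusted p = 0.199). In XY cells the difference was -0.20 ± 0.20 at TS24 and 0.09 ± 0.20 at TS34, neither called. XY germ cells had 8.45, 8.23 and 8.33 at TS24 and 7.44, 7.58 and 7.89 at TS34, and XX germ cells 8.31 and 9.04 at TS24 and 8.68, 8.35 and 8.21 at TS34. XY supporting cells had 8.29, 8.22 and 7.89 at TS24 and 7.60, 7.75 and 7.83 at TS34. In germ cells at TS34 every XY value was below every XX value.

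In germ cells at TS34 Gli3 was lower in XY than in XX, with a difference of -0.78 ± 0.20 (adjusted p = 0.00588). In XY germ cells its TS34 minus TS24 difference was -0.70 ± 0.20 (adjusted p = 0.0438), and its sex difference changed between TS13 and TS34 by -0.97 ± 0.28 (adjusted p = 0.0404). Both of these calls depended on single arrays and on the processing. The step was lost on leaving out any of 5 of its 6 arrays (adjusted p up to 0.255), all but germ XY TS34 replicate 3. The change was lost for 8 of its 12 arrays (adjusted p up to 0.136), the exceptions being XX TS13 replicate 1, XY TS13 replicate 3, XX TS34 replicate 3 and XY TS34 replicate 3. With all 36 arrays, trend and robust moderation, array weights or the spread of the compared groups alone, both calls were lost (adjusted p of 0.0737 to 0.123 for the step and 0.0637 to 0.116 for the change), and the step also with quantile normalization (adjusted p = 0.0639). At TS34 the sex difference in supporting cells minus that in germ cells was 1.08 ± 0.28 (adjusted p = 0.00535), a comparison added after the values were seen.

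In XY supporting cells Gli3 rose by 0.77 ± 0.20 at TS24 relative to TS13 (adjusted p = 0.00476), and without supporting XY TS13 replicate 1 the step was 0.63 and was not called (adjusted p = 0.0540). XX supporting cells had a step of 0.66 ± 0.20, which was not called (adjusted p = 0.0563) but was with array weights (0.64, adjusted p = 0.0183). The XY minus XX difference in supporting cells was 0.22 to 0.33 at the 3 stages, never called, except for TS34 with array weights (0.35, adjusted p = 0.0319).

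Gli1 and Gli2, an activator induced by the pathway and its main activator in many mouse tissues, were called in none of the 28 comparisons. Gli1 in XY supporting cells read 6.75, 6.76 and 7.06 at TS13, 7.62, 7.15 and 6.90 at TS24, and 6.91, 7.15 and 7.04 at TS34. In XX supporting cells it read 6.95, 6.93 and 7.09 at TS13, 7.04, 7.22 and 7.21 at TS24, and 6.91, 6.74 and 6.92 at TS34. The sexes overlapped at TS13, TS24 and TS34. The XY minus XX difference of Gli1 in supporting cells was 0.07 ± 0.20 at TS24, with a 95% interval of -0.34 to 0.48, the stage at which Ptch1 differed by 1.67 ± 0.22. In germ cells it was 0.40 ± 0.23 at TS24 and 0.21 ± 0.20 at TS34, neither called. With array weights the TS34 value was 0.55 (adjusted p = 0.0236). Gli2 ran from 6.09 to 7.38, and its XY minus XX difference in supporting cells lay between -0.26 ± 0.21 at TS24 and -0.14 ± 0.21 at TS34. In germ cells at TS34 it was 0.45 ± 0.21 (adjusted p = 0.199), and 0.52 with array weights (adjusted p = 0.0278). In XY supporting cells its TS24 minus TS13 difference of -0.50 ± 0.21 was not called (adjusted p = 0.0978), but was called at -0.65 with quantile-normalized values (adjusted p = 0.0118) and at -0.66 with median-centred arrays (adjusted p = 0.00880).

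Counted by comparison, 1 of the 8 genes was called between XY and XX supporting cells at TS13, when 3.78% of all genes tested were called, 1.84% higher and 1.94% lower in XY. There were 2 of 8 at TS24, against 15.3% of all genes (9.75% higher and 5.58% lower), and 2 of 8 at TS34, against 14.0% (8.24% higher and 5.74% lower). All 5 calls were higher in XY. In germ cells the counts were 0 of 8 at TS13 (0.0285% of all genes), 0 of 8 at TS24 (1.96%) and 2 of 8 at TS34 (10.5%, with 6.04% higher and 4.46% lower), where Ptch1 was higher and Gli3 lower in XY. At TS24 against TS13 there were 3 of 8 in XY supporting cells (16.8%), 0 in XX supporting cells (3.37%), 1 in XY germ cells (1.50%) and 0 in XX germ cells (1.21%). At TS34 against TS24 there were 0 in XY supporting cells (1.06%), 0 in XX supporting cells (0.643%), 1 in XY germ cells (2.73%) and 0 in XX germ cells (8.88%). Where limma called 0 of the 8 between stages or sexes, those at an unadjusted p under 0.05 were also counted, beside all 17571 genes tested. For germ cells of the sexes there were 0 at TS13 (554 of all genes) and 1 at TS24 (Ptch1, 2629 of all genes). Among the steps there were 3 for XY supporting cells at TS34 (Dhh, Ptch1 and Gli3, 2408 of all genes). XX supporting cells had 2 at TS24 (Smo and Gli3, 2081) and 1 at TS34 (Hhip, 1391). XX germ cells had 1 at TS24 (Dhh, 2096) and 1 at TS34 (Gli2, 4035). With 8 genes these counts say little about the genes as a group.

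The sex difference changed between TS13 and TS34 in 1 of 8 genes in supporting cells (4.88% of all genes) and 2 of 8 in germ cells (3.69%), and between TS13 and TS24 in 1 in supporting cells (4.51%) and 0 in germ cells (0.154%). It differed between the cell types in 0 of 8 at TS13 (1.66%), 1 at TS24 (9.91%) and 2 at TS34 (12.8%). Where the count was 0, genes at an unadjusted p under 0.05 were counted too. There were 2 of the 8 for the change by TS24 in germ cells (Ptch1 and Gli1), beside 1522 of all 17571 genes tested. For the cell types at TS13 there were 2 (Dhh and Ptch1), beside 1474 of all genes. Between supporting and germ cells, averaged over sexes and stages, 4 of 8 were called (53.2% of all genes), a share near that of the whole array. Within XY they were 3 of 8 at TS13 (32.4%), 3 at TS24 (31.9%) and 2 at TS34 (28.9%), and within XX 2 of 8 at TS13 (30.4%), TS24 (27.9%) and TS34 (30.1%). In the step of XY supporting cells at TS24 the median of all genes tested was 0.22, and quantile normalization brought it to 0.01. Of the calls in that step 2658 were higher and 299 lower, while quantile-normalized values gave 1176 and 803 and median-centred arrays 1716 and 564. For XY against XX supporting cells at TS13 the calls were 323 higher and 341 lower, with 566 and 353 from quantile-normalized values and 492 and 308 from median-centred arrays. The Dhh, Ptch1 and Gli3 steps of XY supporting cells at TS24 were called under both, at 0.66 or more for Ptch1 and 0.52 or more for Gli3 over all alternatives.

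**Figure D3:**
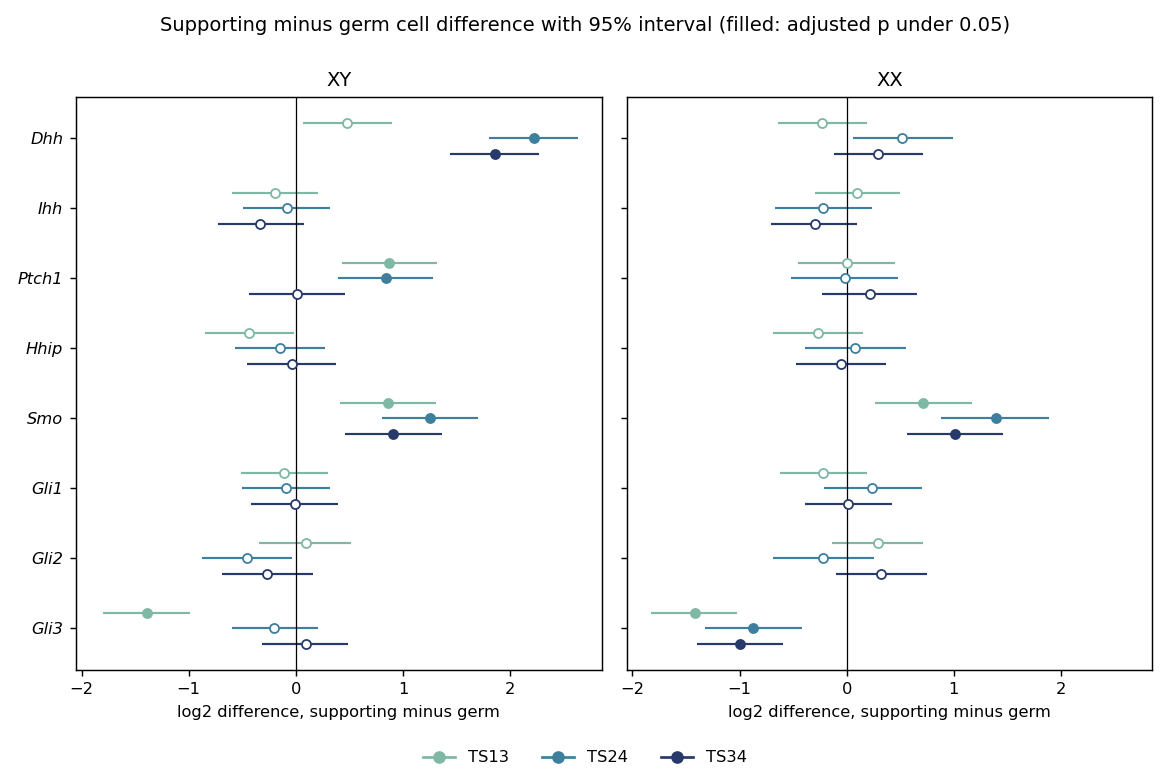
Supporting minus germ cell log2 difference (horizontal axis) with its 95% interval for each of the 8 genes (vertical axis) at TS13, TS24 and TS34, in XY (left) and XX (right). Filled points have an adjusted p under 0.05. Smo lies above 0 in all 6 combinations, Dhh in XY at TS24 and TS34, Ptch1 in XY at TS13 and TS24, and Gli3 lies below 0 in XX at every stage and in XY at TS13.

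Among 8 further genes of ligand synthesis and release, Scube1 was called between the sexes. In supporting cells 0 of 8 were called at TS13, 1 at TS24 and 0 at TS34, against 3.78%, 15.3% and 14.0% of all genes tested, and none in germ cells. Scube1 encodes a secreted glycoprotein of the family that helps lipid-bearing Hedgehog leave the cell. It had means of 9.94 in XY and 9.0 in XX supporting cells at TS24 (0.94 ± 0.21, adjusted p = 8.26e-04). It fell to 8.62 in XY supporting cells at TS34, against 9.94 at TS24. Scube1 was higher in supporting than in germ cells by 1.66 ± 0.09 on average. Disp1, the transporter that releases the ligand, rose to 8.76 in XY supporting cells at TS24, against 8.05 at TS13 (adjusted p = 0.0345). The values overlapped, at 8.49 to 9.14 at TS24 and 7.46 to 8.54 at TS13, and the median of all genes in that step was 0.22. No sex difference of Disp1 was called. Hhat, the enzyme that adds palmitate to the ligand, was at 5.47 in XY and 5.60 in XX supporting cells at TS24, close to the 25th percentile of the arrays. Shh, the remaining ligand gene, was called in no comparison between the sexes, with means of 6.98 in XY and 6.81 in XX supporting cells at TS24. The remaining members, Hhatl, Disp2, Scube2 and Scube3, had XY minus XX differences between -0.44 and 0.27 in supporting cells and none was called.

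Of 6 co-receptors and ligand-binding surface proteins 5 were measured, and those that differed did so in both directions. Boc, a co-receptor that promotes Hedgehog reception, read 6.54 to 6.75 in XY and 7.92 to 8.33 in XX supporting cells at TS24, a difference of -1.54 ± 0.22 (adjusted p = 2.77e-07). At TS34 it read 6.28 to 6.55 in XY and 8.09 to 8.38 in XX, a difference of -1.91 ± 0.22 (adjusted p = 1.39e-09). Boc thus did not overlap between the sexes at either stage, and ran opposite to Ptch1. At TS13 it was 7.45 in XY and 7.56 in XX and not called, and in XY it fell by 0.82 ± 0.22 at TS24 relative to TS13 (adjusted p = 0.00654).

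Cdon, the related co-receptor, was lower in XY supporting cells at TS13, with a difference of -1.01 ± 0.30 (adjusted p = 0.0433), with values of 5.23 to 6.83 in XY and 6.37 to 7.69 in XX that overlapped. Gpc3, a glypican that binds Hedgehog away from Patched, was higher in XY at TS24, with means of 9.96 in XY and 9.04 in XX supporting cells (0.91 ± 0.23, adjusted p = 0.00324). Gas1, another co-receptor, lay within 7.80 to 7.97 in the 6 supporting group means and was not called between the sexes. Lrp2, an endocytic receptor, was lower in XY germ cells at TS34, at 5.78 in XY and 6.47 in XX (adjusted p = 0.0116). It was 5.67 in XY and 5.62 in XX supporting cells at TS24, not called.

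Of 26 genes of cytoplasmic and ciliary transduction 22 were measured. Between XY and XX supporting cells none was called at TS13, 1 was higher and 4 lower at TS24, and 0 higher and 2 lower at TS34. Of all genes tested 9.75% were higher and 5.58% lower at TS24, and 8.24% higher and 5.74% lower at TS34. The median difference of the 22 at TS24 was -0.22, against 0.04 over all genes tested. The largest at TS24 were Kif3a, a kinesin motor of intraflagellar transport, at 9.15 in XY and 10.09 in XX (-0.94 ± 0.21, adjusted p = 5.52e-04), Iqce, a ciliary base protein, at 7.79 in XY and 7.15 in XX, and Ift88, a transport subunit, at 8.21 in XY and 8.84 in XX. At TS34 the lower ones were Btrc, a ubiquitin ligase subunit, at 9.31 in XY and 10.01 in XX, and Dync2h1, the ciliary dynein heavy chain, at 7.06 in XY and 7.70 in XX. In germ cells none was called at TS13 or TS24, and at TS34 Tulp3, Ift172 and Gsk3b were higher and Cul1 lower in XY. Of all genes tested 6.04% were higher and 4.46% lower in that comparison. Ift172, another transport subunit, was at 8.84 in XY and 7.48 in XX germ cells (1.36 ± 0.21, adjusted p = 3.47e-06). Sufu, which holds GLI proteins in the cytoplasm, and Kif7, a ciliary kinesin that regulates them, were called between the sexes in neither cell type.

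Genes induced by Hedgehog signalling in other tissues were called in both directions. Of 14 listed 13 were measured. In supporting cells 1 was higher and 1 lower in XY at TS13, 2 and 3 at TS24, and 2 and 3 at TS34, where 3.78%, 15.3% and 14.0% of all genes tested were called, with a median difference at TS24 of -0.03, against 0.04 over all genes. Foxc2, a forkhead factor, was higher in XY at TS24, at 7.94 in XY and 6.54 in XX (1.41 ± 0.28, adjusted p = 1.06e-04), and also at TS34. Bmp4, a secreted growth factor, was lower, at 7.19 in XY and 8.34 in XX at TS24 (-1.15 ± 0.22, adjusted p = 9.28e-05). Nr2f2, a nuclear receptor that is also on the interstitial list, was lower at TS24, at 7.16 in XY and 8.70 in XX. At TS13 Ccnd1, the cyclin D1 gene, was higher, at 9.02 in XY and 7.60 in XX (1.42 ± 0.25, adjusted p = 7.64e-05). In germ cells none was called at TS13 or TS24. At TS34 Bmp4, Sfrp1 and Foxc2 were higher in XY germ cells and Ccnd1 was lower, where 6.04% of all genes tested were higher and 4.46% lower. Bmp4 was at 8.97 in XY and 7.73 in XX germ cells. In supporting cells at that stage Bmp4 was at 7.09 in XY and 8.21 in XX.

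**Figure D4:**
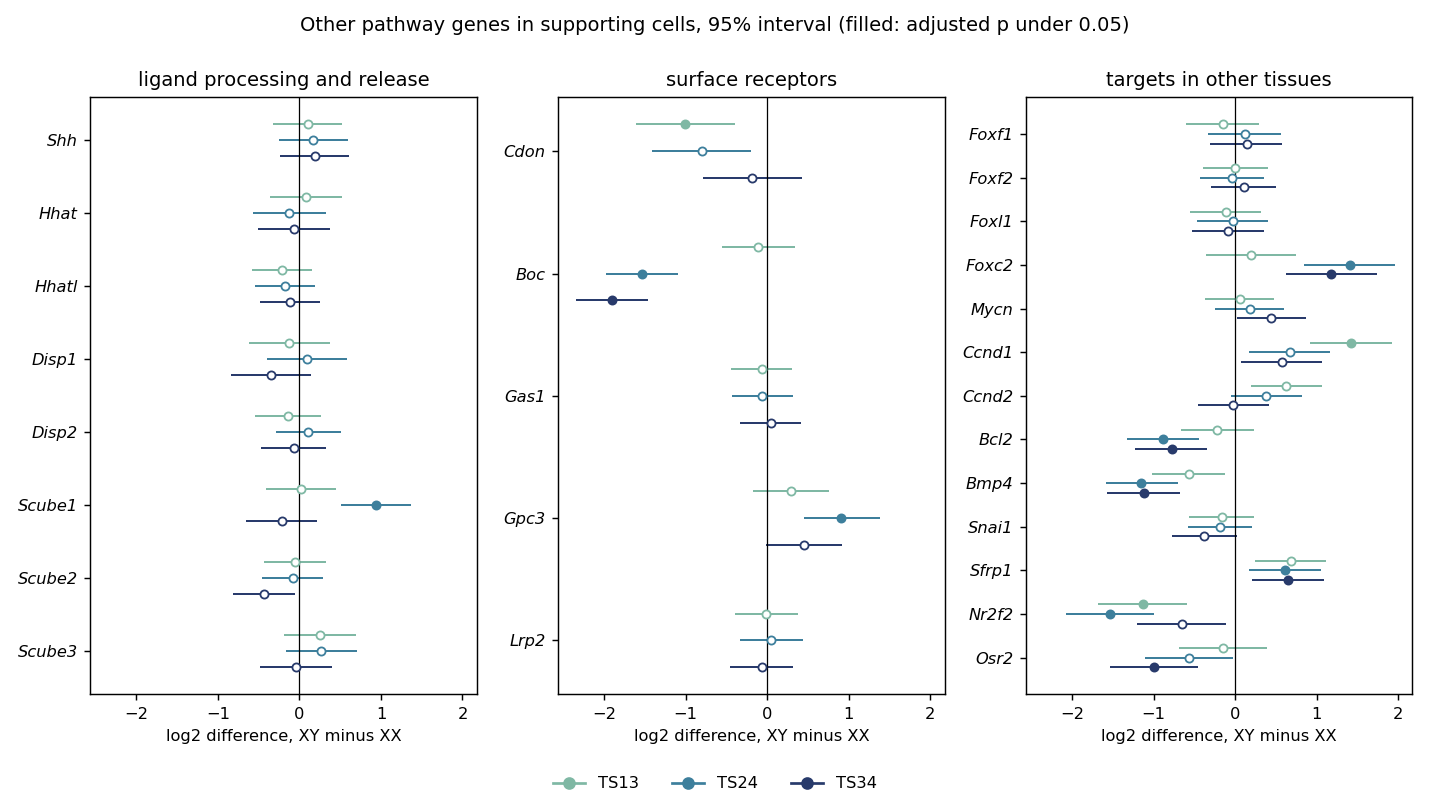
XY minus XX log2 difference in supporting cells (horizontal axis) with its 95% interval at TS13, TS24 and TS34, for the genes (vertical axis) of ligand processing and release, of reception at the cell surface, and for genes induced by the pathway in other tissues. Filled points have an adjusted p under 0.05. Boc is lower in XY at TS24 and TS34, Scube1 and Gpc3 are higher at TS24, and the genes induced elsewhere fall on both sides of 0.

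Among all genes tested, those most like each member with a span of group means over 1 were found by Pearson's r over the 12 group means, as a description. For Dhh they were Col9a3 (0.986), Olfml1 (0.984) and Rasl12 (0.981), and Col9a3, a collagen IX chain gene, had group means between 8.01 and 10.12. For Ptch1 the likeness was looser, with Sgk3 (0.923), Tbc1d20 (0.902) and Pmepa1 (0.901). For Smo they were Bcl9 (0.982), Itm2a (0.982) and Gsdmd (0.977), and for Gli3 Mrpl36 (0.964), Cdc6 (0.958) and Mrpl51 (0.958). Between members, r over the same 12 means was 0.727 for Dhh and Ptch1 and 0.323 for Ptch1 and Gli1. The group means share mouse line, sort and array level, so these values carry no test.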

How the data were processed

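The deposited values are log2 expression per probe set, summarised by the authors with RMA per the submitters' processing notes. Its version is not given in the sources used here. Array medians ran from 6.412 to 6.841 over 35557 probe sets, and the values were used with no further normalization. Precision is limited by the number of arrays.

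Gene names came from the array's annotation, which gave 21789 probe sets 1 symbol, 1621 several (not named) and listed no gene for 12147. Symbols were updated by Entrez identifier to RefSeq GRCm38.p6. Each gene was read from its probe set of highest mean. Genes above the 25th percentile of their array on at least 3 arrays were tested, 17571 of 19938, all 8 Hedgehog genes among them. One mean per group was fitted with limma 3.58.1 in R 4.3.3 over 35 arrays, with 23 residual and 25.96 prior degrees of freedom. All p are two-sided. There were 28 comparisons, 5 of them added after the values were seen. All 10 alternatives and the leaving out of each of 35 arrays were run, and the procedure was tested on simulated data. The Hedgehog genes, the pathway lists and the marker lists were chosen with earlier results of these data known. All 8 genes are described. Of the other lists the genes of ligand release and reception and up to 3 called genes of largest difference per list and comparison could be named. Further genes named, Sufu, Kif7 and those listed as called, were chosen after their values were seen. The interstitial and stromal samples were not analysed here. Replicate numbers did not pair samples (correlations of deviations -0.508 to 0.130, over 0.1 in 1 of 39 pairs).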

Additional observations from a re-analysis of the deposited data

Results flagged for a closer look

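Among the Hedgehog genes 3 had effects that differed between stages or cell types by a test of the difference itself. In supporting cells the XY minus XX difference of Dhh was larger by 1.15 ± 0.29 at TS34 and by 1.59 ± 0.29 at TS24 than at TS13, and mouse line changed between these stages in XY. It exceeded the difference in germ cells by 1.70 ± 0.31 at TS24 and by 1.56 ± 0.29 at TS34. In germ cells, all of the same mouse line, the XY minus XX difference changed between TS13 and TS34 by 1.13 ± 0.31 for Ptch1 and by -0.97 ± 0.28 for Gli3. The Ptch1 call was lost on leaving out any of 5 of 12 arrays, and the Gli3 call any of 8 of 12. The Gli3 sex difference in supporting cells exceeded that in germ cells by 1.08 ± 0.28 at TS34. No group had 4 or more arrays, so single outlying arrays were not tested for.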

How the results depend on the processing

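Of 37 called results for the Hedgehog genes, 351 of 363 values under the alternatives kept their direction and call, 12 lost the call and 0 reversed. With single arrays left out 355 of 377 kept it, 22 lost it and 0 reversed. All losses concern the Gli3 step and the Ptch1 and Gli3 sex changes of germ cells, Ptch1 and Gli3 steps at TS24 in XY, and Smo and Gli3 between cell types in XX.

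The XY minus XX calls in germ cells, 2, became 4 with array weights, and the stage steps of XX supporting cells, 0, became 2. The stage steps of XY germ cells, 2, became 1 with all 36 arrays, with quantile normalization, with trend and robust moderation, with array weights and with the spread of the compared groups alone, the Gli3 step being lost. Those of XX germ cells, 0, became 1 with all 36 arrays. The germ cell sex changes, 2, became 0 with all 36 arrays (Ptch1 and Gli3 lost) and 1 with trend and robust moderation, array weights and the compared groups' spread (Gli3 lost). The cause was not tested. With 1 array left out, the counts ran from 0 to 2 for XY germ steps and for germ sex changes, from 2 to 4 for XY supporting steps, from 4 to 5 for supporting minus germ cells on average and from 13 to 15 within sex and stage, and the other counts did not move. XY germ steps fell to 0 without germ XY TS24 replicate 2.

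With the replicate number as a block the counts were the same, 5 and 2 for the sexes in supporting and germ cells. Of 26 comparisons with at least 100 calls, the share of higher calls moved by over 10 percentage points under quantile normalization or median centring in 14, among them the sexes in supporting cells at TS13 but not at TS24 or TS34. Between supporting and germ cells on average that share was 38.1%, and 54.7% with quantile normalization and 49.3% with median centring. A filter at the 50th percentile left Hhip untested.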
